A study of Mus musculus and Homo sapiens with 41 samples.

Results

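The primary (azurophil) granule genes form a set of 10 transcripts that promyelocytes make in large amounts: Mpo, Elane, Prtn3, Ctsg, Ms4a3, Srgn, Nkg7, Plac8, Ctsc and Serpinb1a. They were matched by symbol in the deposited expression tables. All 10 were found among 53756 gene rows of the granulocyte-monocyte progenitor (GMP) table. The 416b table listed 9 of them among 13238 genes, and did not list Elane. All genes listed there were above 0 in both of its libraries. The study asked how the transcription factor PLZF, encoded by Zbtb16, acts on enhancers and gene expression of myeloid progenitors. GMPs carried either wild type (WT) Zbtb16 or the Zbtb16lu/lu mutation, both in the C57BL/6 strain. In both groups total bone marrow had been transplanted into lethally irradiated Cd45-1 recipients of the same strain. The antibodies listed for the study include one against the Cd45-2 allele. GMPs were sorted 16 weeks later as lineage negative, Cd45+, C-Kit+, Sca-1-, Cd34+ and FcγR+ cells. The donors' age was not given in the sources used here. The 416b cells, a Cd34+ murine myeloid progenitor line, received an Empty vector or a PLZF-Flag lentivirus, both carrying GFP, and GFP+ cells were sorted after 48 h.

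Primary granules are the first granules that a neutrophil precursor builds, and their contents are transcribed at the promyelocyte stage and largely silent afterwards. Myeloperoxidase makes hypochlorous acid inside the phagosome. The neutrophil serine proteases cleave ingested proteins and bacterial walls once Ctsc has activated them by removing a dipeptide. Transcription of these genes in myeloid progenitors is known to depend on PU.1, C/EBP factors, RUNX1 and MYB, and mutations in human ELANE cause neutropenia.

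The promoters of the peroxidase and the serine protease genes are shown because these are the members whose transcripts are most restricted to the promyelocyte stage. Each window runs from 250 bases before to 50 bases after a transcript start given by RefSeq on GRCm38.p6, read 5′ to 3′ on the strand of the gene. Capitals mark the PU.1 core GAGGAA, which was searched together with its reverse complement. The windows lie at chr11:87793534-87793833 for Mpo (plus strand), chr10:79886062-79886361 for Elane (plus strand), chr10:79879417-79879716 for Prtn3 (plus strand) and chr14:56102525-56102824 for Ctsg (minus strand).
Mpo promoter: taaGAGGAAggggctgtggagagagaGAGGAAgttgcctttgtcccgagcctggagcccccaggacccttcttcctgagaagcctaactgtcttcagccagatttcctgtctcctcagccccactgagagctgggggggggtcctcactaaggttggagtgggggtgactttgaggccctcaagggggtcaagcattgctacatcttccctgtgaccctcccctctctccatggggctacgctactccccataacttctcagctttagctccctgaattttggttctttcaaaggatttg
Elane promoter: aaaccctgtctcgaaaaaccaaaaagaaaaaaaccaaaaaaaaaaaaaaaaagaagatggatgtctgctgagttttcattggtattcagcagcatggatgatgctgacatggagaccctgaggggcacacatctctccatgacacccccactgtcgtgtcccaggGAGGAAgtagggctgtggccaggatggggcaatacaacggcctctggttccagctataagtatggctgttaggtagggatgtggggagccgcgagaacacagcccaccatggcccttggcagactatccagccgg
Prtn3 promoter: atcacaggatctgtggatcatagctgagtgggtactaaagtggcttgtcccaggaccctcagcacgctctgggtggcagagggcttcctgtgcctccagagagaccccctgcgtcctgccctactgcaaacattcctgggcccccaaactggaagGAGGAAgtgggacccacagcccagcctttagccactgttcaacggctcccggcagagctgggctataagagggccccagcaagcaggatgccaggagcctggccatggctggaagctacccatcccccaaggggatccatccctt
Ctsg promoter: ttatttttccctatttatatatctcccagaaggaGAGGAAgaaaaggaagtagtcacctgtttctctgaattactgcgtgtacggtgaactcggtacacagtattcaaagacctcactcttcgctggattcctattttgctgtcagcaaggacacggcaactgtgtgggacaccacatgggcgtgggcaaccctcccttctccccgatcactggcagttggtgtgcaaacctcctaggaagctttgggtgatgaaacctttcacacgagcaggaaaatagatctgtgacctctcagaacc

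All 4 windows held the letters GAGGAA, with 2 copies in Mpo and 1 in each of the others. In all, 11 windows were found for 9 members, and 7 of the 11 held GAGGAA or its complement, against 28.3% of 32851 promoter windows of the same length. The C/EBP core TTNNGNAA was found in 4 of the 11 windows (40.7% of all windows), the RUNX core TGNGGT in 6 (45.8%) and the MYB core AACNG in 10 (80.3%), each searched on both strands. These matches describe letters in the windows and no binding was read from them.

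Elane (chr10:79886247-79888215) starts 3072 bases after the end of Prtn3 (chr10:79874476-79883174) on the same strand in the GENCODE M21 annotation of GRCm38. That annotation begins Prtn3 upstream of the RefSeq start used for the window. Mpo lies at chr11:87793581-87804413 on the plus strand and Ctsg at chr14:56099881-56102574 on the minus strand. The other members are spread over chromosomes 5, 7, 10, 13 and 19. Ctsc (chr7:88278085-88310888) and Nkg7 (chr7:43437073-43438249) are both on chromosome 7, and Srgn (chr10:62493833-62527451) shares chromosome 10 with Prtn3 and Elane.

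The GMP table held 2 WT and 2 Zbtb16lu/lu libraries of 37562999 to 40170636 reads, and for 416b cells there was 1 library per condition. The names of WT library 1 and Zbtb16lu/lu library 2 carry the same date, so both genotypes were compared within that date and between the other pair. The study describes independent RNA extractions for the GMP libraries, without saying whether each came from its own mice, and the p-values measure the spread between these libraries. Zbtb16 itself stood at 705 and 828 normalized counts in the WT and at 269 and 369 in the Zbtb16lu/lu libraries, a limma log2 difference of -1.28 ± 0.20 (SE) with an adjusted p of 0.299 by limma and 4.5e-05 by DESeq2. The cells expressed the markers of the GMP gate, with Cd34 between 12396 and 17633 and Kit between 6511 and 7338 normalized counts, while Ly6a, which encodes Sca-1, stood between 20.3 and 68.6. In 416b cells Zbtb16 stood at 382 normalized counts in the Empty vector and at 2541 in the PLZF-Flag library. Cd34 and Kit were present in both 416b libraries, as were the megakaryocyte gene Itga2b (22446 and 22145 normalized counts) and the globin gene Hbb-bt (15941 and 19260).

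Some primary granule transcripts were among the most abundant of GMPs. Mpo had the highest normalized count of any gene in each of the 4 libraries. It held 1.19% and 1.25% of all counts in the WT libraries and 1.35% and 1.43% in the Zbtb16lu/lu libraries. The 10 genes together took 2.22% and 2.27% of the counts in WT GMPs and 2.49% and 2.52% in Zbtb16lu/lu GMPs. Both mutant libraries thus stood above both WT libraries, by 0.258 percentage points between the means (2.25% ± 0.0365 against 2.50% ± 0.0197, SD, n = 2 and 2). The exact permutation test, two-sided, gave p = 0.33, the smallest value that 2 against 2 libraries allow. Without Mpo the share was 1.03% and 1.02% in WT libraries, against 1.14% and 1.09% in Zbtb16lu/lu libraries. In a sorted population, more or fewer cells of a type and more or less RNA per cell cannot be told apart.

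Per kilobase of exon, with lengths from GENCODE M21, Mpo was the highest member, with a mean of 140289 ± 1249 (SD, n = 2) normalized counts per kilobase in WT GMPs. Ctsg followed at 107841 ± 5112, Plac8 at 47897 ± 715, Prtn3 at 38342 ± 11043 and Elane at 37882 ± 966. Prtn3 and Elane, neighbours on the chromosome and in this order, had overlapping ranges per kilobase in both genotypes. Ms4a3 at 21721 ± 28.0, Srgn at 15774 ± 1625, Nkg7 at 12534 ± 395 and Serpinb1a at 8055 ± 943 came next. Ctsc was far below the rest, at 817 ± 222 normalized counts per kilobase. Apart from Prtn3 and Elane, the WT ranges of neighbouring members did not overlap. In Zbtb16lu/lu GMPs the ranges of Plac8 and Prtn3 and those of Ms4a3 and Srgn overlapped as well. Mpo ranked between 13 and 15 per kilobase among 51886 genes with an exon length, and Ctsg between 17 and 20. Serpinb1a ranked between 309 and 405, and Ctsc between 3177 and 4538.

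**Figure D1:**
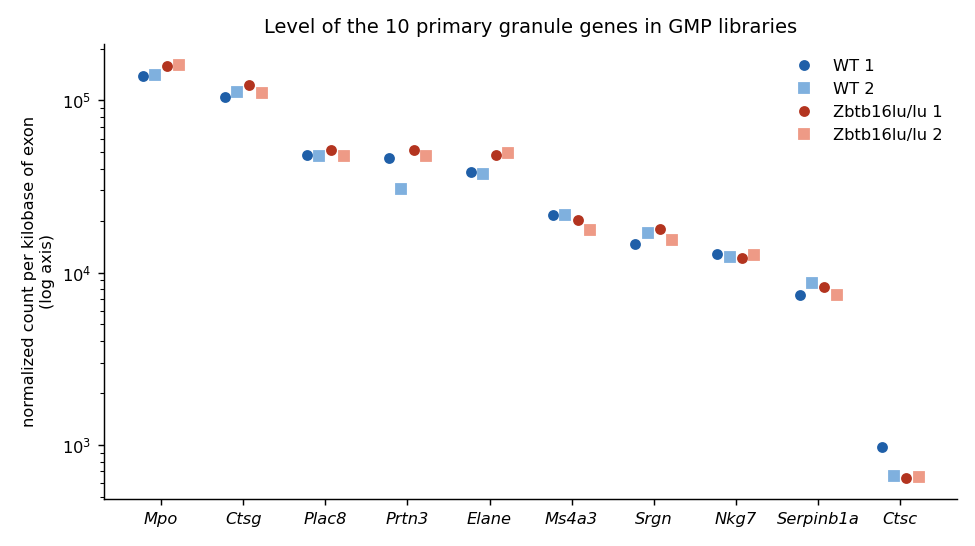
Normalized counts per kilobase of exon (log axis) of the 10 primary granule genes, ordered by their WT mean, with 1 point for each of the 2 WT (blue) and 2 Zbtb16lu/lu (red) GMP libraries. The points of a gene lie close together compared with the distance between Mpo and Ctsc, and Prtn3 in WT library 2 (30533) stands below its other points.

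For Elane, Prtn3 and Mpo each mutant library lay above each WT library, for Ms4a3 and Ctsc each lay below, and the genotypes overlapped for Ctsg, Srgn, Plac8, Serpinb1a and Nkg7. No difference of a member passed the test with all 4 libraries. Zbtb16lu/lu and WT GMPs were compared with limma on log2(normalized count + 1) over 20531 genes, and all 10 members passed the filter on low values. None of the 10 members was called at an adjusted p under 0.08, and none of the 20531 genes was (0% called), with 2028 genes at an unadjusted p under 0.05. The edgeR quasi-likelihood test on the recovered reads also called 0 genes (2033 at an unadjusted p under 0.05). DESeq2 on the same reads called 210 of 14958 genes with an adjusted p (1.4%), and no member among them. A single member, Elane, had an unadjusted limma p under 0.05 with the higher level in Zbtb16lu/lu, as did 1130 of all genes tested (5.5%), while 898 (4.37%) had such a p with the lower level. The median log2 difference over the 10 members was 0.07, beside -0.0063 over all genes tested. The 3 members with both mutant libraries above both WT libraries stand beside 21.7% of all genes tested with that pattern, and the 2 members with both below beside 22.1%.

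Mpo, the myeloperoxidase gene, had 477326 and 483375 normalized counts in the WT libraries and 543288 and 552003 in the Zbtb16lu/lu libraries. The groups did not overlap, and the mutant mean was 1.14 times the WT mean. The limma log2 difference was 0.19 ± 0.16 (SE), with an adjusted p of 0.686. It was 0.21 within the shared date and 0.17 between the other libraries. Gm11505, an antisense gene that shares 512 exon bases with Mpo (69.5% of its own exons), held 0.316 to 0.329 times the count of Mpo in every library. The strand setting of the counting is not given in the sources used here, so reads of Mpo and Gm11505 cannot be told apart.

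Elane encodes neutrophil elastase, the serine protease mutated in cyclic and severe congenital neutropenia. Its WT libraries had 37949 and 36604 normalized counts and its Zbtb16lu/lu libraries 47604 and 48674. Both mutant libraries were higher, and the groups lay further apart than the libraries within either group. The mean ratio was 1.29 and the log2 difference 0.37 ± 0.11 (SE), with an unadjusted limma p of 0.0112 and an adjusted p of 0.428. The adjusted p was 0.430 by edgeR and 0.135 by DESeq2. The difference was 0.36 within the shared date and 0.38 between the other libraries, and it stayed between 0.34 and 0.40 when any 1 library was left out. The adjusted limma p was 0.0222 without WT library 1 and 0.0587 without WT library 2, where 22.7% and 13.4% of all genes tested were called, and 1 without either mutant library. Each of these values assumes that the single library left in a group varies like the pair of the other genotype.

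Prtn3 encodes proteinase 3, the autoantigen of ANCA-associated vasculitis. It had 79932 and 52884 normalized counts in the WT libraries and 88798 and 82272 in the Zbtb16lu/lu libraries. The mutant libraries were both higher, but the 2 WT libraries differed by 0.60 on the log2 scale, more than the genotypes did. The log2 difference was 0.39 ± 0.19 (SE), with an adjusted p of 0.529. Within the shared date it was 0.04 and between the other libraries 0.75. Without WT library 1 it was 0.69 and called (adjusted limma p = 8.46e-05), and without WT library 2 it was 0.10. The count of Prtn3 over that of Elane was 2.11 in WT library 1, 1.44 in WT library 2, 1.87 in mutant library 1 and 1.69 in mutant library 2. Plppr3, whose exons share 159 bases with Prtn3 on the other strand, held 7509 and 6328 normalized counts in WT and 9430 and 9739 in Zbtb16lu/lu libraries.

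Ctsg, the cathepsin G gene of the granzyme cluster on chromosome 14, had 107666 and 115134 normalized counts in the WT libraries and 126403 and 114694 in the Zbtb16lu/lu libraries. The groups overlapped, since mutant library 2 lay between the WT libraries. The log2 difference was 0.11 ± 0.13 (SE), with an adjusted p of 0.782. It was 0.09 within the shared date and 0.13 between the other libraries.

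Ctsc encodes cathepsin C, also known as dipeptidyl peptidase 1, which activates the serine proteases above. It had 5654 and 3835 normalized counts in WT libraries and 3715 and 3755 in Zbtb16lu/lu libraries. Only WT library 1 stood apart, and WT library 2 was close to both mutant libraries. The log2 difference of -0.32 ± 0.17 (SE) had an adjusted p of 0.566. It was -0.59 within the shared date and -0.05 between the other libraries. Without WT library 2 it was -0.60 and called (adjusted limma p = 5.3e-06), and without WT library 1 it was -0.04.

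Serpinb1a encodes an inhibitor of elastase, proteinase 3 and cathepsin G that acts in the cytosol. WT libraries held 17016 and 20087 normalized counts of it, and Zbtb16lu/lu libraries 19112 and 17079. Those ranges overlapped, with a log2 difference of -0.03 ± 0.13 (SE) and an adjusted p of 0.944. Srgn encodes serglycin, the proteoglycan core protein that holds the proteases inside the granule. It stood at 32117 and 37164 in WT libraries and at 39580 and 34066 in Zbtb16lu/lu libraries, with a log2 difference of 0.09 ± 0.13 (SE) and an adjusted p of 0.839. The ranges of Srgn overlapped too.

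Ms4a3 encodes a tetraspan membrane protein expressed in granulocyte and monocyte progenitors. It was the most reproducible member in WT GMPs, with 40960 and 40885 normalized counts, and stood at 37996 and 33123 in Zbtb16lu/lu GMPs. Both mutant libraries were lower, by a log2 difference of -0.21 ± 0.12 (SE) with an adjusted p of 0.585. The difference was -0.31 within the shared date and -0.11 between the other libraries. Ms4a3 thus had the opposite sign to Mpo, Elane and Prtn3 in both pairs of libraries.

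Nkg7, a membrane protein of cytotoxic granules that is also transcribed in promyelocytes, had 11712 and 11201 normalized counts in WT and 11056 and 11617 in Zbtb16lu/lu libraries. Plac8, a small cysteine-rich protein of myeloid cells, had 77057 and 75447 in WT libraries, against 82109 and 75437 in Zbtb16lu/lu libraries. In both genes the genotypes overlapped. The log2 differences were -0.02 ± 0.11 (SE) for Nkg7, with an adjusted p of 0.970, and 0.05 ± 0.12 (SE) for Plac8, with an adjusted p of 0.919. Of 11 genes of NK and T cells, which also carry Nkg7, 2 passed the filter on low values, and the summed normalized counts of all 11 were 115 and 240 in WT libraries, against 296 and 220 in Zbtb16lu/lu libraries. Most of each sum came from Klrk1, with 98.4 and 195 in WT libraries, against 257 and 178 in Zbtb16lu/lu libraries. Cd3d, which passed the filter, was at 2.98 and 3.86 in WT libraries, against 12.0 and 19.5 in Zbtb16lu/lu libraries. Gzma was at 0 in 3 of the 4 libraries. Genes of this list below the filter went in both directions. Klrb1c was at 1.99 and 0.964 in WT libraries, against 9.03 and 13.4 in Zbtb16lu/lu libraries. Trbc2 was at 0.994 and 3.86 in WT libraries and at 0 in both Zbtb16lu/lu libraries. For plasmacytoid dendritic cells, which also carry Plac8, 3 of 5 markers passed, and the sums of all 5 were 2906 and 3110 in WT libraries, against 2976 and 2920 in Zbtb16lu/lu libraries, with Siglech between 0.964 and 2.98.

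**Figure D2:**
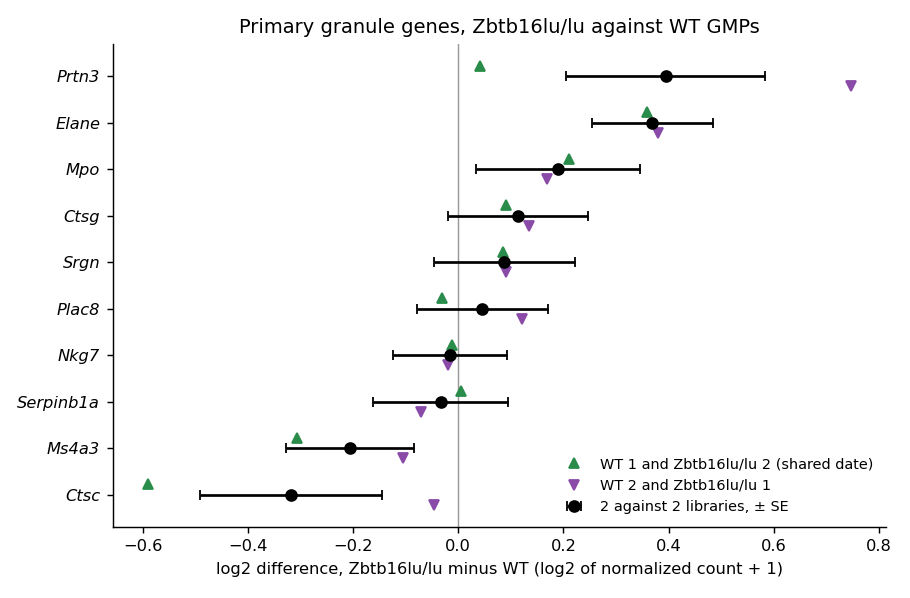
Log2 difference between Zbtb16lu/lu and WT GMPs for each primary granule gene, with black points for 2 against 2 libraries (bars, SE from limma), green triangles for the pair that shares a date and purple triangles for the other pair. Elane gives 0.36 and 0.38 in the pairs, whereas Prtn3 gives 0.04 and 0.75 and Ctsc -0.59 and -0.05.

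The other genes of the granule pathway were read from 6 lists in the same fit, and no gene of any list was called by limma. Of 19 other azurophil and lysosomal granule genes tested, 15 had a higher and 4 a lower mean log2 value in Zbtb16lu/lu GMPs, with a median log2 difference of 0.09 and 3 genes, all higher, at an unadjusted p under 0.05 (5.5% of all genes tested). Lyz2, the myeloid lysozyme, had 4398 and 5574 normalized counts in WT and 8992 and 7260 in Zbtb16lu/lu libraries (log2 difference 0.71 ± 0.15 SE, adjusted p = 0.315 by limma and 0.00405 by DESeq2). Lyz1, the closely related lysozyme whose reads may be shared with Lyz2, stood at 172 and 197 in WT libraries against 368 and 299 in mutant ones. Man2b1, a lysosomal mannosidase, gave a log2 difference of 0.28 ± 0.12 (SE). Ctsd, the lysosomal aspartic protease, gave 0.0044 ± 0.12 (SE), with ranges that overlapped.

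Of 15 genes tested for the processing and sorting of granule proteins, 11 had a lower and 4 a higher mean log2 value in Zbtb16lu/lu GMPs, with a median log2 difference of -0.09. At an unadjusted p under 0.05 there were 4 lower (4.37% of all genes tested) and 1 higher (5.5%). The 4 genes given here are chaperones of the endoplasmic reticulum. Hspa5, the chaperone BiP, had 138662 and 78317 normalized counts in WT and 65879 and 64188 in Zbtb16lu/lu libraries (log2 difference -0.68 ± 0.23 SE, adjusted p = 0.447 by limma and 0.0282 by DESeq2). WT library 1 held the highest value, as it did for Ctsc, and Hspa5 gave -1.11 within the shared date and -0.25 between the other libraries. Hsp90b1 gave -0.54 ± 0.16 (SE, adjusted p = 0.0409 by DESeq2) and Pdia3 -0.45 ± 0.13 (SE, adjusted p = 0.0816 by DESeq2). Calr, the lectin chaperone that binds newly made myeloperoxidase, gave -0.32 ± 0.16 (SE, adjusted p = 0.375 by DESeq2). Each was lower in both mutant libraries than in both WT libraries. Within the shared date these log2 differences were -0.76, -0.65 and -0.45, and between the other libraries -0.32, -0.25 and -0.18.

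Inhibitors of the neutrophil serine proteases had a median log2 difference of 0.01 over 11 genes, Serpinb1a included, and 1 gene, lower, at an unadjusted p under 0.05 (4.37% of all genes tested). Serpina3g, a serpin of haematopoietic cells, was lower, with 1781 and 1543 normalized counts in WT and 1056 and 1022 in Zbtb16lu/lu libraries (log2 difference -0.67 ± 0.14 SE, adjusted p = 0.299 by limma and 0.00792 by DESeq2). Serpina3g belongs to a multigene cluster whose members can share reads. Serpinb10 gave 0.54 ± 0.25 (SE), and Cst7, the cystatin F gene, 0.02 ± 0.12 (SE).

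The transcription factors that act on primary granule genes had a median log2 difference of 0.10 over 11 genes, and none had an unadjusted p under 0.05. Cebpb gave 0.75 ± 0.40 (SE) and Cebpe, which drives the later granule programme, 0.33 ± 0.18 (SE). Within the shared date the values were -0.00060 and -0.0019, and between the other libraries they were 1.51 for Cebpb and 0.66 for Cebpe. Myb, at 34262 to 41713 normalized counts, gave 0.09 ± 0.13 (SE) and Cux1 0.09 ± 0.12 (SE), both with overlapping groups.

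Among the chromosomal neighbours of the Prtn3-Elane and Ctsg loci, 7 of 11 passed the filter, with a median log2 difference of 0.09. The 4 at the Prtn3-Elane locus had higher and the 3 at the Ctsg locus lower mean log2 values in Zbtb16lu/lu GMPs. Plppr3 gave 0.48 ± 0.12 (SE) (adjusted p = 0.370 by limma and 0.0661 by DESeq2), Med16 0.33 ± 0.13 (SE) and R3hdm4 0.09 ± 0.12 (SE). At the Ctsg locus, Gzmb gave -0.76 ± 0.39 (SE), Cma1 -0.29 ± 0.69 (SE) and Mcpt8 -0.10 ± 0.13 (SE), and these were named after their values were seen. Within the shared date Gzmb, Cma1 and Mcpt8 gave -1.43, -1.18 and -0.24, and between the other libraries -0.09, 0.59 and 0.05. Both mutant libraries lay above both WT libraries for the 4 at the Prtn3-Elane locus (21.7% of all genes tested) and below for 1, Gzmb (22.1%). At the Prtn3-Elane locus, Cfd stood near the floor, with 14.9 and 14.5 normalized counts in WT libraries, against 15.1 and 21.6 in Zbtb16lu/lu libraries. Of the 7, 2 had an unadjusted p under 0.05, both higher in Zbtb16lu/lu GMPs (5.5% of all genes tested).

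Of 17 secondary and tertiary granule genes tested, 16 had a higher and 1 a lower mean log2 value in Zbtb16lu/lu GMPs, and the median log2 difference was 0.98. That median is the value of Olfm4, a gene near the floor with 18.9 and 0 normalized counts in WT against 14.1 and 4.11 in mutant libraries, for which edgeR gave -0.048. The median was 0.55 with a pseudocount of 10, 0.56 over genes with a mean of at least 100, 0.45 without WT library 2, 0.48 without mutant library 1, 0.40 within the shared date and 2.01 between the other libraries. For 9 of the 17, all higher, the unadjusted p was under 0.05, as for 5.5% of all genes tested. Ltf, the lactoferrin gene, had 56.7 and 11.6 normalized counts in WT and 846 and 305 in Zbtb16lu/lu libraries (log2 difference 4.24 ± 0.69 SE, adjusted p = 0.299 by limma and 0.0495 by DESeq2). Within the shared date the value for Ltf was 2.41, and between the other libraries it was 6.07. Cd177, a neutrophil surface protein, stood at 235 and 120 in WT libraries, against 621 and 359 in Zbtb16lu/lu libraries (adjusted p = 0.343 by limma and 0.00405 by DESeq2), with log2 differences of 0.61 within the shared date and 2.37 between the other libraries. Hp, the haptoglobin gene, gave 0.12 ± 0.15 (SE, adjusted p = 0.854 by DESeq2) and Fcnb, a ficolin, 0.56 ± 0.16 (SE, adjusted p = 0.128 by DESeq2). Within the shared date these were -0.11 and 0.27, and between the other libraries 0.35 and 0.84. Even where it was highest, the count of Ltf was far below that of Elane.

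**Figure D3:**
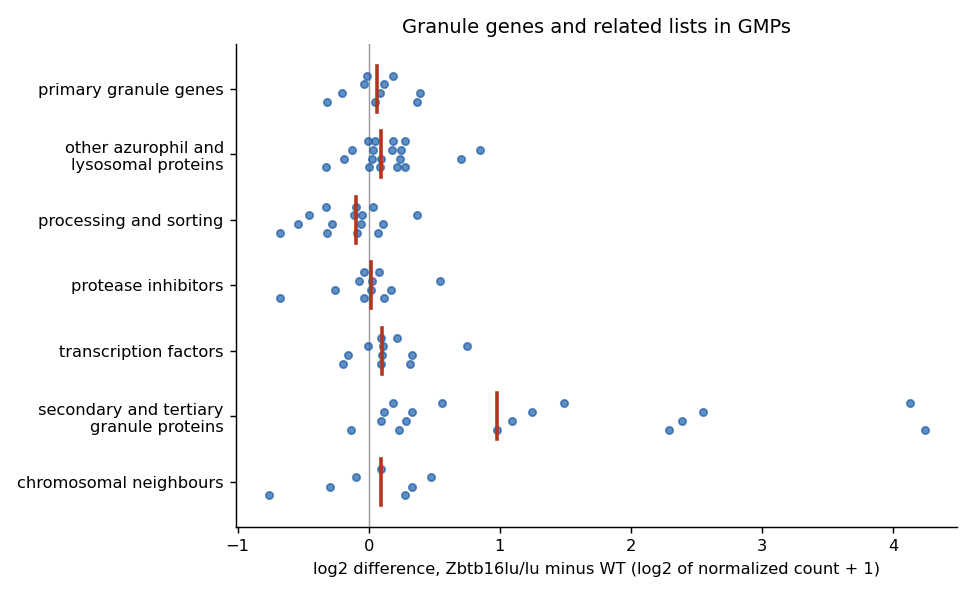
Log2 difference between Zbtb16lu/lu and WT GMPs (2 against 2 libraries) for every tested gene (blue points) of the primary granule genes and of 6 related lists, with the median of each list as a red line. The primary granule genes lie between -0.32 and 0.39, whereas the secondary and tertiary granule genes reach 4.24 around a median of 0.98 (0.55 with a pseudocount of 10).

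Markers of other cells were read in the same libraries. Cells carrying Ter-119, Gr-1, 7-4, Cd11b, Cd5 and B220 had been depleted before the sort. All 12 genes of later neutrophils, of which 8 are also in the list of secondary and tertiary granule genes, had a higher mean log2 value in Zbtb16lu/lu GMPs, with summed normalized counts of 15838 and 8678 in WT libraries, against 23682 and 12847 in Zbtb16lu/lu libraries, so that mutant library 2 lay between the WT libraries. Mmp9 was at 0 in WT library 2. Itgam, which encodes the Cd11b antigen, was at 1645 to 2401 normalized counts. All 6 monocyte genes had both mutant libraries above both WT libraries (21.7% of all genes tested), with sums of 82723 and 96043 in WT libraries, against 118636 and 112506 in Zbtb16lu/lu. The sums for 5 basophil and mast cell genes were 9003 and 8753 in WT libraries, against 8120 and 6356 in Zbtb16lu/lu. For 6 erythroid genes they were 163 and 1034 against 764 and 417, and for 3 megakaryocyte genes 1924 and 4207 against 2654 and 1516. Among B cell genes, Ighm was at 4457 and 4865 against 6246 and 5928, and Cd79b at 1103 and 1055 against 1270 and 1183. Their part in the differences of the granule genes was not tested.

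In 416b cells the primary granule genes were expressed very unevenly. The 9 listed members took 0.0850% of the counts of the Empty vector library and 0.0730% of those of the PLZF-Flag library, in a table normalized separately from that of the GMPs. Srgn was by far the highest, with 19521 and 17886 normalized counts, and ranked 148 and 167 per kilobase among 12961 genes with an exon length. Mpo, the gene with the most counts in GMPs, was at 12.1 and 3.30, that is 20 reads of 54529665 and 2 reads of 19995846. The 416b cells thus carried transcripts of the granule's proteoglycan gene but very few of its peroxidase gene. Ms4a3 had 49.0 and 51.2 normalized counts, Plac8 20.0 and 8.26, and Nkg7 16.3 and 19.8, so these too were near the lower end of the table.

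With 1 library per condition there is no test between PLZF-Flag and Empty vector, and the exact binomial intervals below cover counting error only. Serpinb1a had 4910 normalized counts with the Empty vector and 3356 with PLZF-Flag, which is -0.55 as a log2 ratio (exact 95% interval -0.62 to -0.48). Ctsg had 2318 and 1676, a log2 ratio of -0.47 (-0.57 to -0.37). These were the largest shifts among members with more than 100 reads in both libraries. Srgn gave -0.13 (-0.16 to -0.09). Ctsc had 731 and 676 normalized counts (-0.11, -0.28 to 0.05), and Prtn3 470 and 435 (-0.11, -0.32 to 0.09). The intervals of Ctsc and Prtn3 included 0.

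Averaged over both libraries, 8 members reached 10 normalized counts. Intervals lay below 0 for 3 of them and for 15.9% of the 11836 genes at that level. A value lower by at least 1 on the log2 scale was found for 1 of the 8 (Plac8) and for 0.912% of those genes. Plac8 rested on 33 reads with the Empty vector and 5 with PLZF-Flag (-1.27, -2.99 to 0.09). For Mpo, with 20 and 2 reads, the log2 ratio was -1.87 (-5.01 to 0.17). Ms4a3 and Nkg7, at 0.06 (-0.58 to 0.68) and 0.28 (-0.84 to 1.31), were the 2 members with a higher value in PLZF-Flag. The median log2 ratio of the 9 listed members on the log2(normalized count + 1) scale was -0.13, beside -0.00014 over all 11836 genes.

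**Figure D4:**
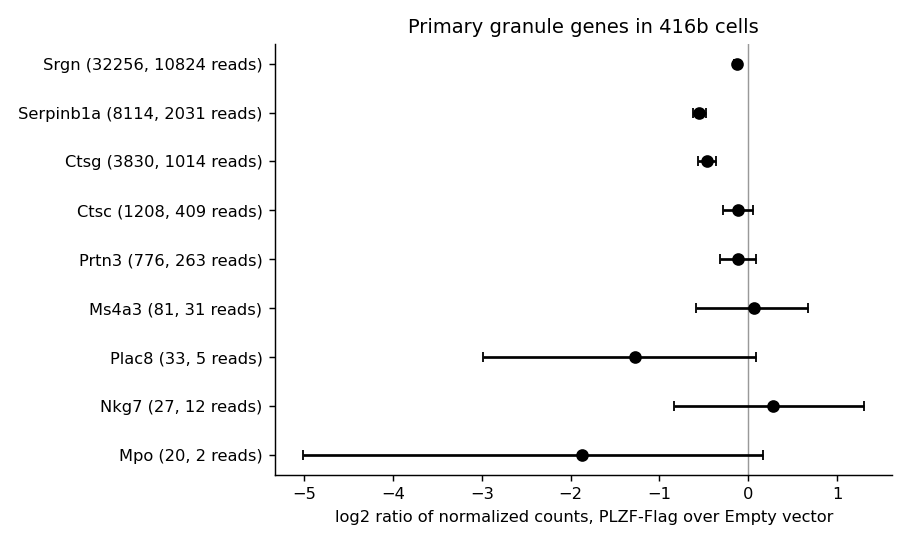
Log2 ratio of normalized counts, PLZF-Flag over Empty vector, for the 9 primary granule genes listed in 416b cells, with exact 95% binomial intervals (counting error only) and the reads of both libraries beside each name, Empty vector first. The intervals of Srgn, Serpinb1a and Ctsg lie below 0, and those of Mpo, Plac8 and Nkg7 are wide because they rest on 33 reads or fewer per library.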

How the data were processed

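RNA-seq was analysed from 2 WT and 2 Zbtb16lu/lu GMP libraries and from 1 Empty vector and 1 PLZF-Flag 416b library. Per the labels and the study's methods, the authors aligned reads to mm10 and counted them per gene with subread-align and featureCounts of the Subread package (1.5.0). The deposited values are a signal in units of counts divided by DESeq2 size factors, called normalized counts here. The authors' own means, fold changes and p-values in the tables were not used. GMP libraries were made from total RNA with a stranded, rRNA-depleting kit, 416b libraries with a kit that does not mark strand, and the strand setting of the counting and the annotation are not given in the sources used here.

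The labels list 1 RNA-seq record per GMP genotype, while the study describes 3 RNA extractions and the table holds 2 columns of each. The columns were assigned by the genotype in their names. Whole reads were recovered by dividing by the value of 1 read. In the GMP libraries 100% of values came out whole within 0.1 read, and in the 416b libraries 84.8% and 85.5%, with all listed members whole. The depth was 37562999 to 40170636 reads per GMP library, 54529665 reads for Empty vector and 19995846 for PLZF-Flag. Intervals cover counting error only.

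Genes with at least 10 normalized counts in at least 2 GMP libraries were tested with limma 3.58.1 (trend, R 4.3.3) on log2(normalized count + 1), with Benjamini-Hochberg adjustment over all 20531 genes and a threshold of 0.08. On this scale the values of genes near the floor depend on the added 1. edgeR 4.0.16 and DESeq2 1.42.0 were run on the recovered reads as alternatives. In the granule pathway lists, an adjusted p by DESeq2 is printed for every gene that DESeq2 called. The limma and edgeR tests, but not DESeq2, were also run on simulated data with known changes, and the outcome is not given here. The intervals for 416b are exact (Clopper-Pearson, scipy 1.17.1). Exon lengths came from GENCODE M21 and promoters from RefSeq. No promoter was read for Serpinb1a.

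The 10 members and all gene lists were chosen with earlier results of these data known. In each list the called genes are named or, where limma called none, the 2 with the smallest unadjusted p and the 2 with the largest mean, which can coincide. Marker genes at or near 0 were named after their values were seen.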

Additional observations from a re-analysis of the deposited data

How the results depend on the processing

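No member was called under another pseudocount (0.1 or 10), filter, scaling, variance model or threshold, nor by edgeR or DESeq2. With 1 library left out, 0 to 2 members, 1 to 4662 of all genes and 0 to 31 genes of the 6 lists were called. Without WT library 1 the members were Elane and Prtn3, and without WT library 2 Elane and Ctsc. Over all genes the count was 4662 without WT library 1, 2749 without WT library 2, 1 without mutant library 1 and 64 without mutant library 2. DESeq2 called 210 of all genes. The median over the members was 0.0051 with quantile normalization and 0.0026 to 0.14 with 1 library left out. Quantile normalization gives Mpo 0.00 by construction, as the highest gene in every library, and turned Ctsg to -0.081, Nkg7 to 0.0089 and Serpinb1a to 0.0013. With 1 library left out, the range was -0.020 to 0.20 for Srgn, -0.051 to 0.021 for Nkg7, -0.015 to 0.11 for Plac8 and -0.15 to 0.087 for Serpinb1a. The list medians ranged from 0.050 to 0.18 for other azurophil genes, -0.27 to -0.11 for processing and sorting, -0.15 to 0.23 for inhibitors, 0.034 to 0.20 for transcription factors, 0.45 to 1.45 for secondary and tertiary granule genes and 0.029 to 0.30 for neighbours. With a mean of at least 100, the secondary and tertiary median was 0.56. The difference in the share of the library was 0.23 to 0.28 percentage points with 1 library left out and 0.26 over genes with a mean of at least 100, and equal totals cannot change it. No paired analysis was possible because library names hold dates and no replicate number, and 1 date only is shared. In 416b cells the members' median stayed below 0 under each pseudocount and scaling. The fits rest on 2 libraries per genotype and 1 per 416b condition, and low 416b counts of Mpo, Plac8 and Nkg7 leave wide intervals.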
